A study of Mus musculus with 26 samples.

Results

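The cell cycle regulators described here are 10 genes: the cyclins Ccnd1, Ccnd2, Ccne1, Ccne2, Ccna2 and Ccnb1, the cyclin-dependent kinase Cdk1, the transcription factors E2f1 and E2f8, and the Cdk inhibitor Cdkn1b. They were taken by symbol from a table of read counts for 47643 genes in 26 mouse liver RNA-seq libraries, and all 10 were found. In all 5 comparisons below, all 10 passed the filter on low counts, some of them only with the counts of treated libraries, as given below. Levels are given as CPM (read counts scaled to a common library size), over all 26 libraries by edgeR's TMM method. Fold changes are on the log2 scale with their standard error (SE) from edgeR's quasi-likelihood test, and a gene is said to have risen or fallen only at a Benjamini-Hochberg adjusted p under 0.05 over all genes tested.

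The libraries form 10 groups in 5 experiments, and each treated group was compared with its own control. Wild-type C57BL/6J mice of 8 weeks received TCPOBOP, an agonist of the nuclear receptor CAR that drives liver growth in mice, or corn oil (2 libraries each, whole liver, fed ad libitum). The sample titles put TCPOBOP at 36 h before collection and the source names at 6 h, so the time is uncertain. Fxr-/- Shp-/- mice, which lack the bile acid receptor Fxr and the repressor Shp, were compared with wild-type mice (3 each, C57BL/6J, 12 weeks, whole liver, ad libitum). C3H/HeN mice of 8 to 10 weeks, with no genotype given, had whole liver taken 48 h after partial hepatectomy (PHx) or after sham surgery at 0 h (3 each, ad libitum), so the sham group is not matched in time. Hepatocytes were isolated from wild-type C57BL/6J mice of 16 weeks on a 60% high fat diet or chow after a 10 h fast (2 each). In the fifth experiment, C57BL/6J mice of 10 to 12 weeks with the alleles fl/fl Fxr fl/fl Shp ate chow or a diet with the primary bile acid cholic acid, after an 8 to 10 h fast (3 each, whole liver). No Cre is named in the labels for these floxed mice, and the labels do not say whether libraries come from separate animals, so p-values measure the spread between these samples.

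In the textbook cycle, D-type cyclins with Cdk4 or Cdk6 start the phosphorylation of the retinoblastoma protein in G1, which frees E2F factors such as E2f1 to turn on the E-type cyclins and the genes of DNA replication. Cyclin A2 then works in S phase and cyclin B1 with Cdk1 in mitosis, while E2f8 is an atypical E2F that represses E2F targets and is known for its part in hepatocyte polyploidy. Cdkn1b encodes p27, which binds and inhibits cyclin and Cdk complexes. Most hepatocytes of an adult liver are quiescent and re-enter the cycle after loss of liver mass.

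In the GENCODE M21 annotation of GRCm38 all 10 are protein-coding genes. The D-type and E-type cyclin genes are Ccnd1 at chr7:144929931-144939925 (minus strand), Ccnd2 at chr6:127125162-127152193 (minus strand), Ccne1 at chr7:38097984-38107534 (minus strand) and Ccne2 at chr4:11191351-11204779 (plus strand). The cyclins and kinase of S and M phase are Ccna2 at chr3:36564865-36572150 (minus strand), Ccnb1 at chr13:100778650-100786570 (minus strand) and Cdk1 at chr10:69335146-69352938 (minus strand). The E2F genes are E2f1 at chr2:154559407-154569892 (minus strand) and E2f8 at chr7:48866429-48881596 (minus strand), and the inhibitor is Cdkn1b at chr6:134920401-134925513 (plus strand).

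Promoters of 4 genes are shown for comparison: Cdk1 and Ccnb1, which were among the 3 genes with the largest changes after hepatectomy, E2f8, which fell in hepatocytes of the high fat diet where Ccnb1 rose, and Cdkn1b, which had the smallest called rise after hepatectomy. Each sequence holds the 250 bases before the RefSeq start of the gene (GRCm38.p6), 5′ to 3′ on the gene's strand. The RefSeq table held windows for 6 of the 10 genes. The windows of Cdk1 (chr10:69352913-69353162, minus strand), Ccnb1 (chr13:100786487-100786736, minus strand), E2f8 (chr7:48881597-48881846, minus strand) and Cdkn1b (chr6:134920151-134920400, plus strand) are printed with matches in capitals. The words searched on both strands were TTTGAA (the cell cycle homology region, CHR, bound by the DREAM and MuvB complexes), CCAAT (the box bound by NF-Y), and the E2F words TTTCCCGC, TTTCGCGC, TTTGCCGC and TTTGGCGC. Capitals TTCAAA and ATTGG are CHR and CCAAT read on the other strand, and no printed match overlaps another.
Cdk1: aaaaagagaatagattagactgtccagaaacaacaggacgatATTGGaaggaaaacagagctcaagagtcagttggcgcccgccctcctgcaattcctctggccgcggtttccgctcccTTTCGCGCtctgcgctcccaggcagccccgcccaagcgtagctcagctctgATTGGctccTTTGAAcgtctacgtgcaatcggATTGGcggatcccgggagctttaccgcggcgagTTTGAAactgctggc
Ccnb1: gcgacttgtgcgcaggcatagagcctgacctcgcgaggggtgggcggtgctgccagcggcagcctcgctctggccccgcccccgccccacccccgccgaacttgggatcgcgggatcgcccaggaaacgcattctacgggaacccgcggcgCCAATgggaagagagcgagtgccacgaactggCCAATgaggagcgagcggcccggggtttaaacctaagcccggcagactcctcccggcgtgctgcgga
E2f8: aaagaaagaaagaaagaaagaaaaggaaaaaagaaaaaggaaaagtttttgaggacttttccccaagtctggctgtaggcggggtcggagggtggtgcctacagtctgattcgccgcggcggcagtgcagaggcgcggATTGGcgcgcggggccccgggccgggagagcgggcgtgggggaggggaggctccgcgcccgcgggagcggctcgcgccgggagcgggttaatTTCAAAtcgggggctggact
Cdkn1b: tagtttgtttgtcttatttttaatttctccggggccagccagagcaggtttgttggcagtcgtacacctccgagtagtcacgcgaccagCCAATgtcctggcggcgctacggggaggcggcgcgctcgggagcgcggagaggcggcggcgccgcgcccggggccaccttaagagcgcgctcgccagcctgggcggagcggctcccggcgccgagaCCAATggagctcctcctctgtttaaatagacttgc
Cdk1 held 2 CHR words, 3 CCAAT words and 1 E2F word (TTTCGCGC, 131 bases before the start), while Ccnb1 held 2 CCAAT words at 99 and 67 bases before its start. E2f8 held 1 of each of the CHR and CCAAT words, and Cdkn1b held 2 CCAAT words. The windows of Ccne1 and E2f1, which are not printed, held none of the words. That of E2f1 (chr2:154569427-154569676, minus strand) lies wholly inside the E2f1 locus given above, downstream of its GENCODE start. It therefore does not show which words stand before that start. Of the 6 windows, 2 thus held the CHR word, 4 held CCAAT and 1 held an E2F word. Over all 32851 windows of this length in the table, 16.0% held the CHR word, 33.8% held CCAAT, 5.55% held both and 1.86% held an E2F word. The words are matches of letters only, and binding was not measured. Variants of these words were not searched, so a window without a word may still hold a variant of it.

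Gene counts per library ran from 13949059 to 70367874, so that 3 counts correspond to between 0.0426 and 0.215 CPM. The filter asks for enough counts in as many libraries as the smaller group of a comparison holds. Through its control libraries alone, Ccnb1 would have failed it in all 5 comparisons. Ccna2 would have failed it likewise in the Fxr-/- Shp-/- comparison, with 9, 3 and 9 counts in wild type. In those comparisons, calls of these genes as raised are not independent of the filter. The hepatocyte marker Alb was abundant in all libraries, at 29990 CPM or more. Nr0b2, the gene of Shp, was at 0.563, 1.10 and 1.60 CPM in the Fxr-/- Shp-/- libraries against 14.5, 26.9 and 13.3 in wild type, and Nr1h4, the gene of Fxr, at 52.9 to 61.6 against 114.2 to 153.3. A pair of control libraries stood apart. The library labelled corn oil 1 had the CAR target Cyp2b10 at 3673 CPM, where corn oil 2 had 10.0 and the TCPOBOP libraries 3421 and 2977. The library labelled floxed chow 3 had Cdkn1a at 3.05 CPM where the other floxed chow libraries had 58.9 and 56.6. Calls, differences and group means of the 10 genes that change without these libraries are given with and without them. The share of reads left out of the gene counts, most of them aligned to more than one place, was 47.6% to 48.6% in wild type against 32.1% to 33.6% in the knockout, 30.0% to 31.4% on floxed chow against 23.0% to 24.4% on cholic acid, and 31.1% to 31.2% on hepatocyte chow against 26.5% to 26.7% on the high fat diet. In the other experiments the ranges of the groups overlapped. In those 3 experiments this share and the treatment or genotype cannot be told apart. In bulk RNA, a change in the number of cycling cells and a change in RNA per cell cannot be told apart. Ccnd1, Ccnd2, Ccne2, Ccna2 and E2f8 overlap other genes on the opposite strand in GENCODE M21, and the use of strand in counting is not given in the sources used here, so a part of their reads may belong to those neighbours.

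**Figure D1:**
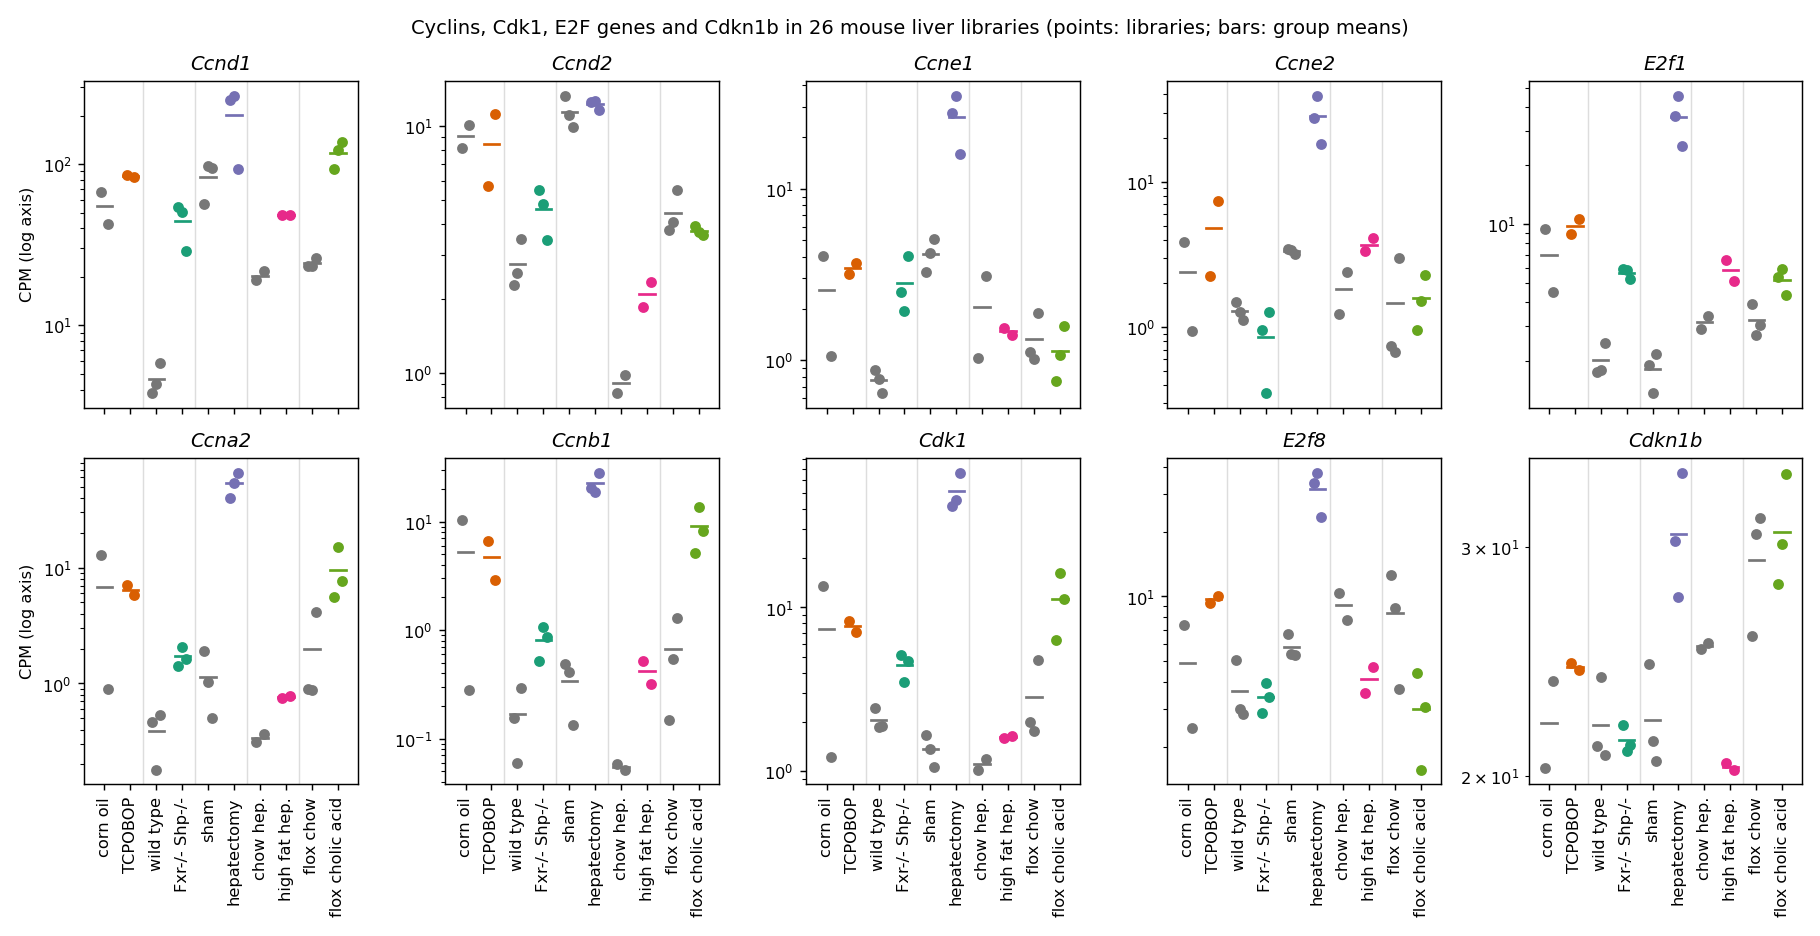
Level of each of the 10 genes in each of the 26 libraries (CPM, log axis that differs between panels). Points are libraries, bars are group means, and grey marks the controls. The libraries 48 h after hepatectomy are the highest for Ccne1, Ccne2, E2f1, Ccna2, Ccnb1, Cdk1 and E2f8, while Cdkn1b stays between 20.2 and 34.2 CPM in all libraries.

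After partial hepatectomy, 9 of the 10 genes rose and none fell, where 16.4% of all 13753 genes tested rose, 14.3% fell and 30.7% were called in either direction. Their median log2 change was 2.86, against 0.01 over all genes tested. The largest changes were those of Ccnb1, Ccna2 and Cdk1, and Ccnd2 was the gene not called. For 8 of the 10, every hepatectomy library stood above every sham library, which held for 24.2% of all genes, while 22.9% lay below. Of these, Cdkn1b moved least.

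Ccnb1, the mitotic cyclin, stood at 0.484, 0.409 and 0.134 CPM in the sham libraries and at 20.5, 18.7 and 28.2 CPM after hepatectomy (log2 change 6.01 ± 0.32, adjusted p = 1.1e-05, edgeR). The sham values rest on 33 counts in all against 2407, a ratio of summed CPM of 65.1 with an exact 95% counting interval of 46.2 to 94.8. Cdk1, its catalytic partner and the kinase that drives mitosis, went from 1.68, 1.37 and 1.07 CPM to 41.5, 45.4 and 66.4 (5.21 ± 0.24, adjusted p = 6.75e-06). Ccna2, the cyclin of S phase and G2, went from 1.90, 1.02 and 0.501 CPM to 40.1, 53.8 and 65.9 (5.54 ± 0.38, adjusted p = 3.31e-05). In all 3 genes the sham and hepatectomy libraries lay far apart. E2f8 stood at 6.71, 5.38 and 5.34 CPM in sham and at 33.6, 37.7 and 23.4 after hepatectomy (2.44 ± 0.19, adjusted p = 7.22e-05), a smaller change from a higher base.

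Among the G1 genes, E2f1 changed most, from 1.90, 1.37 and 2.171 CPM to 35.9, 45.4 and 25.2 (log2 change 4.29 ± 0.26, adjusted p = 1.99e-05, edgeR). The E-type cyclins, which partner Cdk2 at the entry to S phase, both rose. Ccne1 went from 3.26, 4.24 and 5.08 CPM to 27.8, 34.8 and 16.0 (2.64 ± 0.30, adjusted p = 0.00047), and Ccne2 from 3.45, 3.42 and 3.21 CPM to 27.4, 39.1 and 18.2 (3.07 ± 0.27, adjusted p = 0.000129). Ccnd1, the D-type cyclin that responds to growth signals, was already at 56.6, 97.0 and 94.9 CPM in sham and was at 250.8, 264.8 and 93.0 after hepatectomy (1.29 ± 0.38, adjusted p = 0.0344). The third hepatectomy library lay within the sham range for Ccnd1, and the call was lost in 5 of the 6 fits that left out a library. Without the third hepatectomy library the change was 1.64, and over the 6 fits the adjusted p ran from 0.000838 to 0.103. Ccnd2 stayed at 11.5 to 12.6 CPM after hepatectomy against 9.92 to 13.2 in sham (0.10 ± 0.13, adjusted p = 0.586).

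Cdkn1b also rose, from 24.4, 21.3 and 20.5 CPM to 30.4, 27.5 and 34.2 (log2 change 0.48 ± 0.11, adjusted p = 0.0152, edgeR), although the groups lay close together and leaving out the second or the third sham library ended the call, with adjusted p up to 0.069. The other main inhibitor of this family, Cdkn1a (p21, a p53 target), was at 2.90, 7.07 and 6.71 CPM in sham and at 33.7, 30.8 and 78.8 after hepatectomy (3.10 ± 0.45, adjusted p = 0.00178). The third hepatectomy library had the highest Cdk1, Ccna2, Ccnb1, Cdkn1b and Cdkn1a of its group and the lowest Ccnd1, Ccnd2, Ccne1, Ccne2, E2f1 and E2f8. Of 45 other cell cycle control genes, 42 were tested, 30 rose and 1 fell, with a median log2 change of 1.27. The largest rises were those of Cdc20, an activator of the anaphase-promoting complex (6.73 ± 0.31), and Pkmyt1, a kinase that holds Cdk1 inactive (5.55 ± 0.22). The gene that fell was Rbl2, the pocket protein p130 of quiescent cells (-0.74 ± 0.10). Among cell type markers, 0 of 6 leukocyte markers tested was called, 1 of 6 endothelial markers fell, 2 of 6 stellate and 1 of 5 bile duct markers rose, and of 8 hepatocyte markers 1 rose and 3 fell. The summed leukocyte markers were at 95.9 to 132.5 CPM against 88.5 to 152.0 in sham, and the part of these cells was not tested.

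**Figure D2:**
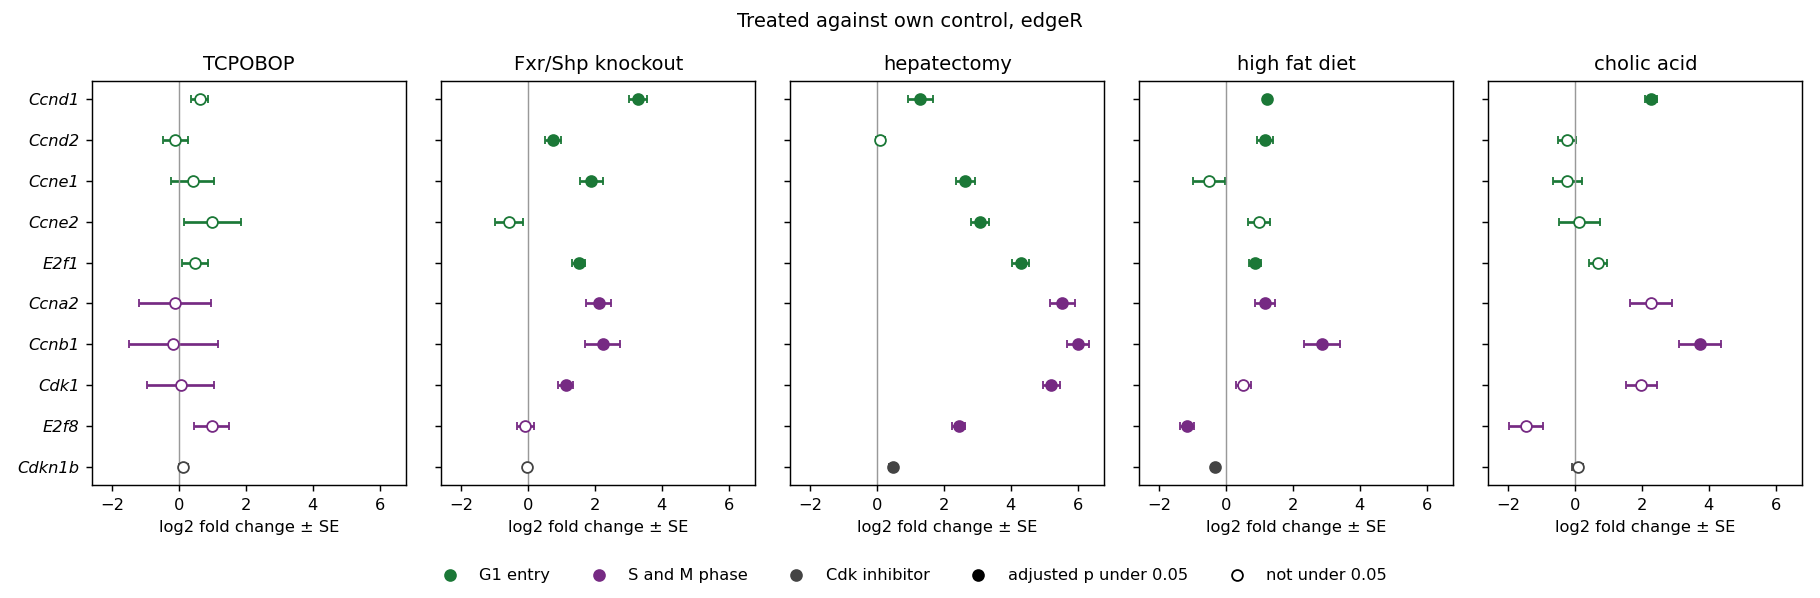
Log2 fold change of each gene against its own control with the SE from edgeR, in the 5 comparisons (the columns) on a common axis. Filled points passed an adjusted p of 0.05 and open points did not. After hepatectomy the purple S and M phase points reach 2.44 to 6.01, and Ccnd1 is filled in all comparisons but TCPOBOP.

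In livers lacking Fxr and Shp, 7 of the 10 genes rose and none fell, where 21% of the 13473 genes tested rose, 19.4% fell and 40.4% were called. Unlike after hepatectomy, Ccnd1 had the largest change, and the median of the 5 G1 genes (1.52) was close to that of the 4 S and M phase genes (1.62). In 6 of the 10 every knockout library lay above every wild-type library and in none below, against 25.5% and 28.2% of all genes. Ccne2, E2f8 and Cdkn1b were not called. When the spread was taken from all 26 libraries in a single fit, 4 of the 10 were called where 32.2% of genes were, and Ccna2 (adjusted p = 0.0756), Ccnb1 (0.137) and Cdk1 (0.124) no longer passed.

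Ccnd1 stood at 3.82, 4.34 and 5.82 CPM in wild type and at 54.5, 50.5 and 28.9 CPM in Fxr-/- Shp-/- livers (log2 change 3.28 ± 0.26, adjusted p = 3.97e-05, edgeR). The wild-type group of this experiment had the lowest Ccnd1 of the 10 groups, at 4.66 ± 1.04 CPM (SD, n = 3), while the knockout mean of 44.7 ± 13.8 lay below the sham mean of 82.8 ± 22.8 of the hepatectomy experiment. Those experiments differ in strain, age and handling, so their levels are set side by side without a test. Ccnd2 was at 2.27, 2.53 and 3.47 CPM against 5.501, 4.81 and 3.44 (0.76 ± 0.25, adjusted p = 0.0368). Its groups touched, and 4 of the 6 fits without a library ended the call, with adjusted p up to 0.134, and with the replicate number as a block (0.0756).

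Ccne1 went from 0.878, 0.783 and 0.647 CPM to 2.51, 1.94 and 4.05 (log2 change 1.89 ± 0.34, adjusted p = 0.00287, edgeR), with no overlap. Ccne2 did not move with it: the wild-type libraries were at 1.497, 1.26 and 1.118 CPM and the knockout libraries at 0.953, 0.353 and 1.27 (-0.56 ± 0.42, adjusted p = 0.31). E2f1 rose from 1.76, 1.81 and 2.47 CPM to 5.89, 5.83 and 5.28 (1.52 ± 0.19, adjusted p = 0.000488), the tightest knockout group among the G1 genes that rose.

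The S and M phase genes stayed low in absolute terms. Ccna2 rose from 0.465, 0.181 and 0.529 CPM to 1.43, 2.08 and 1.64 (log2 change 2.12 ± 0.37, adjusted p = 0.00247, edgeR), and Cdk1 from 2.43, 1.87 and 1.88 CPM to 5.11, 3.53 and 4.70 (1.13 ± 0.22, adjusted p = 0.00442). Ccnb1 was at 0.155, 0.0602 and 0.294 CPM in wild type, from 3, 1 and 5 counts, and at 0.520, 1.06 and 0.859 in the knockout (2.24 ± 0.53, adjusted p = 0.00971). On counts alone the Ccnb1 ratio was 4.78 with an exact 95% interval of 2.35 to 10.99. E2f8 was at 5.06, 3.01 and 2.82 CPM against 2.86, 3.97 and 3.40 (-0.08 ± 0.26, adjusted p = 0.832), and Cdkn1b at 21.1, 23.8 and 20.8 CPM against 21.9, 20.9 and 21.1 (-0.02 ± 0.10, adjusted p = 0.897). Both had overlapping groups.

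Cdkn1a was at 45.3, 28.8 and 49.4 CPM in wild type and at 112.4, 105.1 and 120.9 in the knockout (log2 change 1.48 ± 0.17, adjusted p = 0.000321, edgeR). Of the other control genes, 40 were tested, 11 rose and 3 fell, with a median of 0.11. Cdc20 (2.78 ± 0.49) and Foxm1, a transcription factor for G2 and M genes (2.32 ± 0.44), rose most, and Ccnf, cyclin F (-2.43 ± 0.21), and Cks2, a small Cdk-binding protein (-0.88 ± 0.30), fell most. Beside these changes, 4 of 6 stellate, 4 of 5 bile duct, 3 of 7 leukocyte and 2 of 6 endothelial markers tested rose, and 5 of 8 hepatocyte markers fell. The summed stellate markers were at 380.6 to 438.3 CPM in the knockout against 178.6 to 291.0 in wild type, and the bile duct markers at 54.5 to 128.1 against 26.5 to 36.2. The defining markers of these cells (Ptprc, Stab2, Lrat and Krt19) were detected in every library of both groups. The part of these cells in the cyclin changes was not tested, and wild type had the larger share of reads left out of the counts, as given above.

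On the cholic acid diet, 2 of the 10 genes rose, Ccnd1 and Ccnb1, and none fell, where 2.27% of the 12577 genes tested rose, 2.5% fell and 4.77% were called. Cdk1 and Ccna2 had log2 changes near 2 that did not pass the test with all libraries, and the E-type cyclins did not separate. For 5 of the 10 genes every cholic acid library lay above every chow library and for none below, against 15.5% and 15.6% of all genes. The number of S and M phase genes called changed without the library labelled floxed chow 3, and also without other libraries. A single fit of all 26 libraries called 21% of genes by edgeR. There Ccna2 (adjusted p = 0.0168), Ccnb1 (0.00192) and Cdk1 (0.00983) were raised, and E2f8 (0.0134) was lowered.

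Ccnd1 stood at 23.4, 23.3 and 26.3 CPM on chow and at 93.3, 121.5 and 136.9 CPM on cholic acid (log2 change 2.27 ± 0.19, adjusted p = 0.0019, edgeR). The groups lay far apart and the call held in all 6 fits that left out a library, at 2.14 to 2.42. Ccnd2 was at 3.78, 4.07 and 5.51 CPM against 3.94, 3.72 and 3.62 (-0.24 ± 0.26, adjusted p = 0.605), with overlapping groups. Ccne1 was at 1.11, 1.02 and 1.89 CPM against 0.758, 1.08 and 1.57 (-0.23 ± 0.42, adjusted p = 0.783), and Ccne2 at 0.741, 0.678 and 2.97 CPM against 0.960, 1.51 and 2.29 (0.12 ± 0.62, adjusted p = 0.928). The third chow library was the highest of its group for each of these 4 genes. E2f1 was at 3.93, 2.71 and 3.05 CPM against 5.35, 5.93 and 4.34, with no overlap (0.69 ± 0.27, adjusted p = 0.173).

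Ccnb1 stood at 0.148, 0.543 and 1.31 CPM on chow, from 28 counts in all, and at 5.15, 13.7 and 8.25 CPM on cholic acid (log2 change 3.75 ± 0.63, adjusted p = 0.0158, edgeR). The ratio of summed CPM was 13.4 with an exact 95% counting interval of 9.16 to 20.3. The Ccnb1 call was lost without the second chow library (adjusted p = 0.076), the second cholic acid library (0.0621) or the third (0.0537), while the change stayed at 3.29 or more. Cdk1 was at 2.00, 1.76 and 4.79 CPM against 6.31, 16.3 and 11.2 (1.98 ± 0.47, adjusted p = 0.0523). Ccna2 was at 0.889, 0.882 and 4.13 CPM against 5.56, 15.2 and 7.73 (2.27 ± 0.64, adjusted p = 0.0823). In both genes the third chow library was above the other chow libraries and below every cholic acid library.

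E2f8 went the other way in this experiment, at 12.6, 8.82 and 3.70 CPM on chow against 4.39, 1.56 and 3.05 on cholic acid (log2 change -1.47 ± 0.50, adjusted p = 0.128, edgeR), with overlap through the third chow library. Without that library 5 genes were called, where 10.4% of all genes were: Ccnd1 (2.33), Ccna2 (3.41, adjusted p = 0.00953), Ccnb1 (4.65, adjusted p = 0.00724) and Cdk1 (2.58, adjusted p = 0.0129) as raised, and E2f8 (-1.83, adjusted p = 0.0273) as lowered. Cdkn1b was at 25.6, 30.7 and 31.6 CPM against 28.1, 30.2 and 34.1 (0.07 ± 0.16, adjusted p = 0.827).

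Cdkn1a ranged from 3.05 to 58.9 CPM on chow and from 22.2 to 157.1 on cholic acid (log2 change 1.16, adjusted p = 0.496, edgeR). Of the other control genes, 39 were tested, 6 rose and none fell, with a median of 0.19, and Cdc20 (3.13 ± 0.54) and Foxm1 (2.85 ± 0.61) rose most. Among cell type markers, 1 of 7 leukocyte and 1 of 6 stellate markers rose, none of 6 endothelial or 4 bile duct markers was called, and 2 of 8 hepatocyte markers fell. The summed leukocyte markers were at 127.5 to 207.1 CPM against 60.98 to 143.3 on chow, and their part was not tested.

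In hepatocytes of mice on the high fat diet, 5 of the 10 genes rose and 2 fell, where 12.9% of the 13892 genes tested rose, 11.1% fell and 24% were called in all. Ccnd1, Ccnd2, E2f1, Ccna2 and Ccnb1 rose, and E2f8 and Cdkn1b fell. Treated libraries lay above the controls in 7 of the genes and below in 2, against 37.5% and 30.2% of all genes, which with 2 libraries each is a weak criterion. In a single fit of all 26 libraries 2 of the 10 were called, Ccnd1 and Ccnd2, where 11.6% of genes were. There E2f1 (adjusted p = 0.0507), Ccna2 (0.454), Ccnb1 (0.164), E2f8 (0.108) and Cdkn1b (0.139) no longer passed. The log2 changes ran from -1.17 to 2.88, with a median of 0.93 against 0.01 over all genes tested.

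Ccnd1 stood at 19.0 and 21.8 CPM on chow and at 48.6 and 48.3 CPM on the high fat diet (log2 change 1.22 ± 0.09, adjusted p = 0.00209, edgeR), and it was called in all 4 fits that left out a library. Each such fit leaves a group of 1 library, which is assumed to vary like the other group. Ccnd2 was at 0.833 and 0.986 CPM against 1.85 and 2.33 (1.17 ± 0.24, adjusted p = 0.0238). E2f1 was at 2.92 and 3.37 CPM against 6.59 and 5.10 (0.86 ± 0.19, adjusted p = 0.026). Each of the 3 rose with no overlap, but in fits without a library the call was lost in 3 of 4 for Ccnd2, with adjusted p up to 0.108, and in 2 of 4 for E2f1, with adjusted p up to 0.118. Ccne1 was at 1.03 and 3.08 CPM against 1.55 and 1.41 (-0.51 ± 0.48, adjusted p = 0.475), and Ccne2 at 1.24 and 2.41 CPM against 3.32 and 4.09 (0.99 ± 0.32, adjusted p = 0.0745). Without the first chow library Ccne1 was called as lowered (-1.08, adjusted p = 0.0297), and without the second Ccne2 was called as raised (1.54, adjusted p = 0.0112).

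Among the S and M phase genes, Ccna2 was at 0.310 and 0.363 CPM against 0.750 and 0.781 (log2 change 1.15 ± 0.30, adjusted p = 0.0427, edgeR), and Ccnb1 at 0.0581 and 0.0519 CPM, 3 counts in each chow library, against 0.525 and 0.322 (2.88 ± 0.53, adjusted p = 0.0181). On counts, the Ccnb1 ratio was 7.74 with an exact 95% interval of 3.34 to 22.0. Ccna2 and Ccnb1 remained below 1 CPM on either diet. Cdk1 was at 1.03 and 1.19 CPM against 1.61 and 1.64 (0.52 ± 0.22, adjusted p = 0.138), and E2f8 fell from 10.4 and 7.79 CPM to 3.54 and 4.69 (-1.17 ± 0.22, adjusted p = 0.0179). Cdkn1b fell from 25.1 and 25.3 CPM to 20.5 and 20.2 (-0.34 ± 0.08, adjusted p = 0.0357). The calls of Ccna2 and Cdkn1b were lost in all 4 fits that left out a library, at adjusted p of 0.0937 to 0.172 and 0.0954 to 0.128. Those of Ccnb1 were lost in 2, at up to 0.105, and E2f8 lost its call in 1 fit, without the first high fat library, at 0.0635.

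Beside these changes, endothelial, stellate and leukocyte markers were higher in the high fat preparations, while bile duct markers were not clearly apart. All 6 endothelial, 5 of 6 stellate and 5 of 6 leukocyte markers tested rose, 0 of 2 bile duct markers was called, and 3 of 8 hepatocyte markers fell. The summed endothelial markers were at 103.9 and 107.5 CPM against 42.2 and 43.7 on chow, the stellate markers at 40.1 and 42.5 against 9.86 and 16.5, and the leukocyte markers at 46.5 and 48.2 against 23.2 and 27.2. The summed bile duct markers were at 10.9 to 18.1 CPM against 10.9 to 11.2 on chow, with overlap. Of that list, Krt19 was at 0 counts in both chow libraries and at 1 to 9 counts on the high fat diet. The part of these cells in the cyclin values was not tested. Of the other control genes, 41 were tested, 4 rose and 5 fell, with a median of -0.03: Cdc25b, a phosphatase that activates Cdk1 (2.15 ± 0.45), and Rbl1, the pocket protein p107 (1.31 ± 0.26), rose most, and Ccnf (-1.04 ± 0.22) and Cdc25a, a phosphatase of the entry to S phase (-0.90 ± 0.17), fell most. Cdkn1a was at 10.98 and 3.51 CPM against 11.7 and 10.9 (0.61, adjusted p = 0.382).

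With TCPOBOP, none of the 10 genes was called, and neither was any of the 12785 genes tested (0%). edgeR gave 751 genes at an unadjusted p under 0.05, and DESeq2's Wald test called 94. Calls here depend on the library labelled corn oil 1, whose Cyp2b10 level goes against its label. Ccnd2, Ccne1, Ccna2, Ccnb1 and Cdk1 differed in sign between the fits without one or the other corn oil library. Ccnd1, E2f1, E2f8 and Cdkn1b kept a positive sign in every fit that left out a library. Ccnd1 stood at 67.3 and 42.8 CPM with corn oil and at 86.0 and 83.6 CPM with TCPOBOP, so that both treated libraries lay above both controls (log2 change 0.61 ± 0.24, adjusted p = 0.839). Cdk1 was at 13.6 and 1.22 CPM with corn oil and at 8.30 and 7.11 with TCPOBOP. Ccna2 was at 12.8 and 0.889 CPM against 7.02 and 5.77, and Ccnb1 at 10.3 and 0.278 CPM against 6.62 and 2.92. In these 3 genes the library labelled corn oil 1 was the highest of the 4 and corn oil 2 the lowest.

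Fitted without the library labelled corn oil 1, which leaves a single control assumed to vary like the TCPOBOP libraries, 7 of the 10 genes were called as raised by edgeR, where 5.71% of 13190 genes were raised and 9.35% were called. They were Ccnd1 (log2 change 0.98 ± 0.13), Ccne1 (1.70), E2f1 (1.11), Ccna2 (2.83 ± 0.39), Ccnb1 (4.06 ± 0.73), Cdk1 (2.64 ± 0.35) and E2f8 (1.98 ± 0.28), with adjusted p of 0.00281 to 0.0436. When the spread was taken from all other libraries in a single fit, an alternative chosen after seeing the data, 3.69% of genes were called, and of the 10 only Ccnb1 (4.08 ± 0.94, adjusted p = 0.0159) and Cdk1 (2.65 ± 0.59, adjusted p = 0.0125). Fitted without corn oil 2 instead, none was called, where 3.14% of genes were, and Ccnb1 (-1.12), Ccna2 (-1.01), Cdk1 (-0.82) and Ccne1 (-0.25) had the opposite sign to the fit without corn oil 1. Ccnd2 also differed in sign between these fits, at -0.26 without corn oil 1 and 0.045 without corn oil 2. For E2f8 the corn oil libraries were at 7.33 and 2.45 CPM and the TCPOBOP libraries at 9.29 and 10.1 (0.98 ± 0.53, adjusted p = 0.895 with all 4). The remaining values were 8.10 and 10.1 CPM against 5.69 and 11.1 for Ccnd2, 4.08 and 1.06 against 3.19 and 3.71 for Ccne1, and 3.86 and 0.945 against 2.26 and 7.35 for Ccne2. E2f1 was at 9.43 and 4.50 CPM against 8.94 and 10.6, Cdkn1b at 20.3 and 23.7 against 24.4 and 24.1, and Cdkn1a at 17.0 and 2.72 against 8.36 and 2.01. Ccnd1, E2f8 and Cdkn1b were the 3 genes whose TCPOBOP libraries both lay above both controls, and none lay below, against 17.6% and 17.3% of all genes. Cdkn1b was nearly level in all 4 libraries, while Ccna2, Ccnb1 and Cdk1 differed by more than 10 times between the controls. None of the 41 other control genes tested was called, with a median log2 change of 0.02.

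The differences between the effects were tested directly for 4 pairs of experiments that share no libraries within a pair. The experiments of each pair also differ otherwise, which cannot be told apart from the difference of the effects. Hepatectomy was done in C3H/HeN mice with a sham group at 0 h, and the others in C57BL/6J. Mice of the cholic acid and high fat experiments were fasted, and the others were not. The cholic acid mice carry floxed alleles, and the high fat experiment used isolated hepatocytes in place of whole liver. The log2 change after hepatectomy was above that in the knockout for 7 of the 10 genes and below it for Ccnd1, where 16% of 14755 genes were higher, 15.4% lower and 31.5% called. The difference in log2 change was 4.07 ± 0.34 for Cdk1 (adjusted p = 3.23e-06, edgeR), 3.74 ± 0.88 for Ccnb1 (adjusted p = 0.00593), 3.40 ± 0.76 for Ccna2 (adjusted p = 0.00427) and 2.51 ± 0.33 for E2f8 (adjusted p = 0.000108). Ccnb1 passed the filter here only with the counts of treated libraries, so its call is not independent of the filter. Ccnd1 alone was lower in this contrast, by -2.01 ± 0.52 (adjusted p = 0.0109). Among the G1 genes Ccne2 (3.62 ± 0.51) and E2f1 (2.76 ± 0.34) differed, while Ccne1 did not pass (0.73 ± 0.52, adjusted p = 0.316) and neither did Ccnd2 (-0.67 ± 0.27, adjusted p = 0.0754), which passed without the third wild-type library (0.0376) or the third knockout library (0.0259). The difference for Cdkn1b was 0.48 ± 0.15 (adjusted p = 0.0273). It lost its call in 5 of 12 fits without a library, with adjusted p up to 0.0688, and Ccnb1 lost it without the third wild-type library (0.0697).

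Set against cholic acid, which reuses the hepatectomy and sham libraries, the change was higher after hepatectomy for 6 genes and lower for none, where 8.01% of 13985 genes were higher, 5.01% lower and 13% called. They were Ccne1 (2.87 ± 0.52), Ccne2 (2.95 ± 0.67), E2f1 (3.61 ± 0.36), Ccna2 (3.27 ± 0.81), Cdk1 (3.23 ± 0.57) and E2f8 (3.92 ± 0.56), with edgeR adjusted p of 0.000121 to 0.0206. Of these 6 genes, none was called on cholic acid with all libraries. The difference did not pass for Ccnb1 (2.26 ± 0.81, adjusted p = 0.0856, but 0.0375 without the first floxed chow library and 0.0457 without the second cholic acid library), Ccnd1 (-0.97 ± 0.46, adjusted p = 0.191), Ccnd2 or Cdkn1b. Without the third floxed chow library Ccne2 (adjusted p = 0.0561) and Ccna2 (0.105) no longer passed, at differences of 1.90 and 2.13, and Ccna2 also failed without the second or the third sham library.

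The knockout effect exceeded the cholic acid effect in 1 gene, Ccne1, by 2.12 ± 0.55 (adjusted p = 0.0221, edgeR), where 7.18% of 13935 genes were higher, 6.74% lower and 13.9% called. That difference was lost in 3 of 12 fits without a library, with adjusted p up to 0.059. Ccnd1 differed by 1.02 ± 0.33 (adjusted p = 0.0608) and E2f8 by 1.40 ± 0.61 (adjusted p = 0.148), which did not pass. Without the third floxed chow library, E2f8 passed at 1.75 ± 0.49 (adjusted p = 0.0318), and 2 of the 10 genes were called where 16.5% of all genes were. Without the third knockout library, Ccnd1 (1.26 ± 0.26, adjusted p = 0.00931) and Ccnd2 (1.18 ± 0.34, adjusted p = 0.0419) passed. With Ccne1 (adjusted p = 0.0496), 3 of the 10 genes were called in that fit, where 12.1% of all genes were. Against the high fat diet, the knockout effect was larger for Ccnd1 (2.07 ± 0.35, adjusted p = 0.00272) and Ccne1 (2.41 ± 0.64, adjusted p = 0.0277), where 7.98% of 14280 genes were higher, 8.11% lower and 16.1% called. The Ccnd1 difference held in all 10 fits without a library and that of Ccne1 was lost in 6, with adjusted p up to 0.125.

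**Figure D3:**
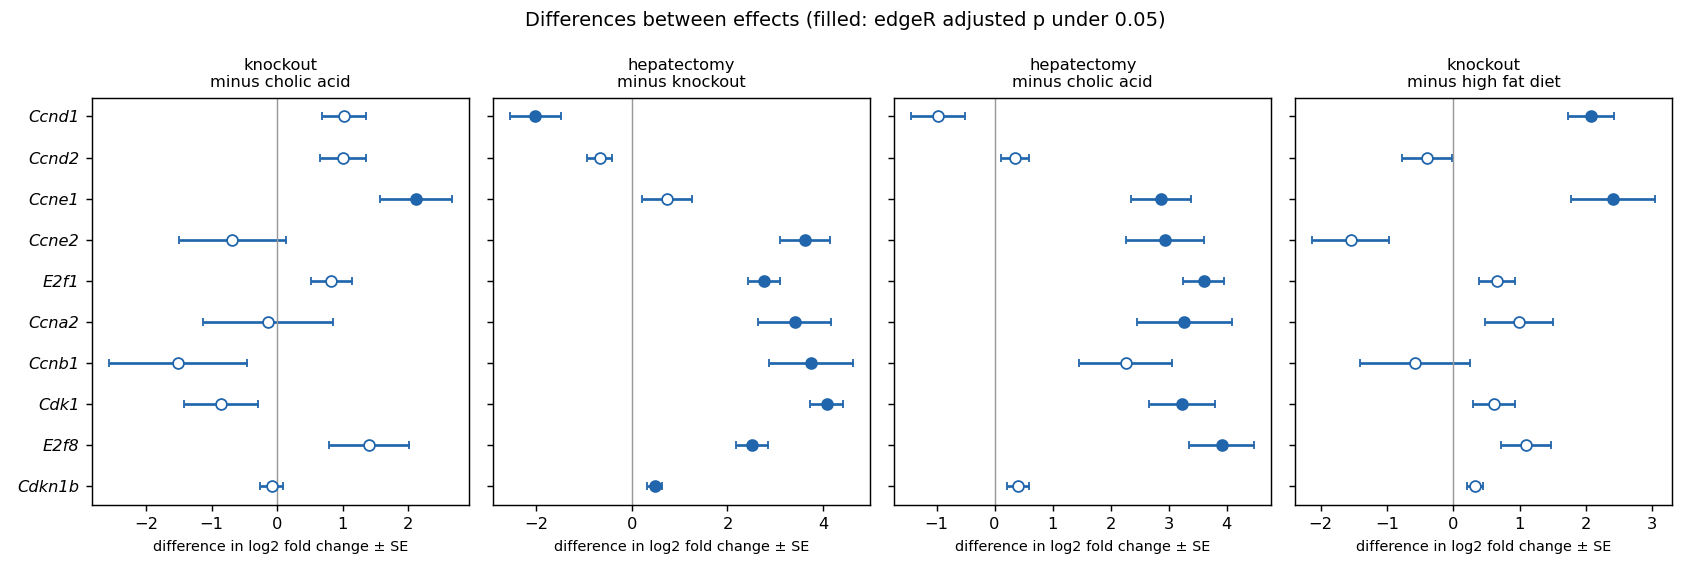
Difference between 2 effects for each gene, as the difference in log2 fold change with its SE from edgeR, in 4 pairs of experiments; the axes differ between panels. Filled points passed an adjusted p of 0.05. Ccnd1 lies at -2.01 for hepatectomy minus knockout, and Cdk1 at 4.07 on the other side of 0.

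The balance between the G1 cyclin and the mitotic kinase was read inside each library as the log2 ratio of Cdk1 to Ccnd1 counts, with 0.5 added to each, which needs no scaling between libraries. It was -5.06, -6.13 and -6.45 in sham and -2.597, -2.55 and -0.49 after hepatectomy, a difference of 4.004. In the knockout it went down, from -0.65, -1.20 and -1.61 in wild type to -3.41, -3.83 and -2.62, a difference of -2.13. In both experiments the groups did not overlap. The exact two-sided permutation p was 0.1 in each, the smallest that 3 libraries against 3 allow. With Ccna2 in place of Cdk1 the knockout difference was -1.07 (exact permutation p = 0.2), so it depends on which gene of the later phases is read.

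On cholic acid the ratio was -3.88, -2.89 and -3.61 against -3.53, -3.70 and -2.45 on chow, a difference of -0.24 with overlap (exact permutation p = 0.6). Without the third floxed chow library that difference was 0.15. In hepatocytes it was -4.92 and -4.88 on the high fat diet against -4.20 and -4.18 on chow, a difference of -0.71 (exact permutation p = 0.3333, the smallest for 2 against 2). With TCPOBOP it was -3.37 and -3.55 against -2.31 and -5.10, a difference of 0.24 (exact permutation p = 1.0). Leaving out corn oil 2 gave -1.15, and leaving out the library labelled corn oil 1 gave 1.64. The ratio compares reads and not molecules, since the transcripts differ in length.

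**Figure D4:**
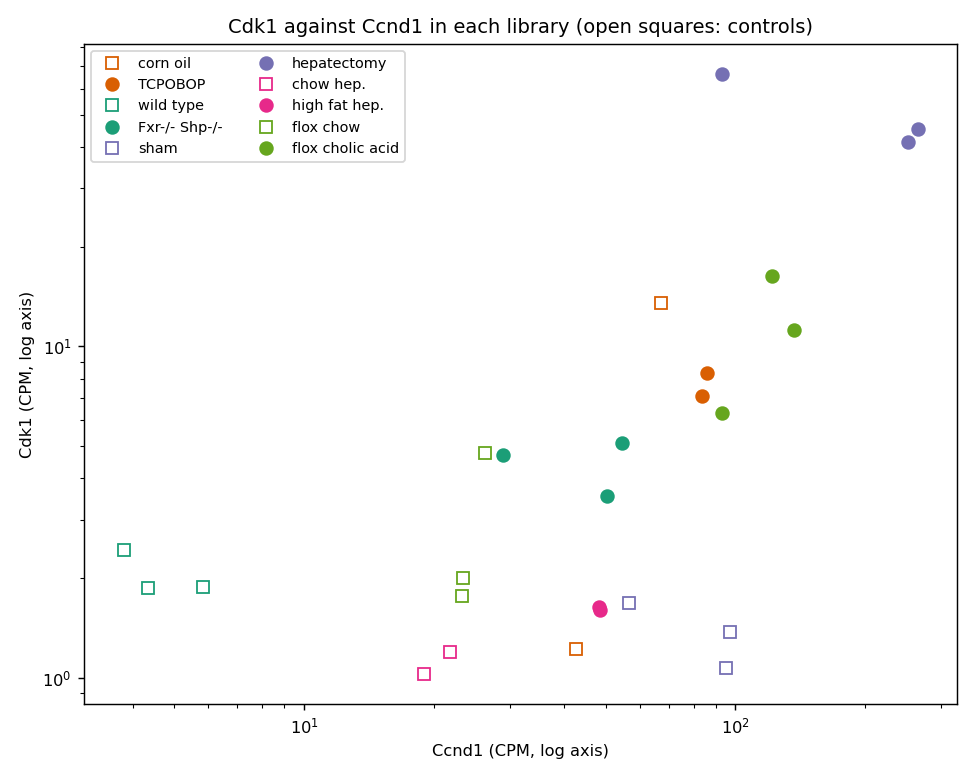
Cdk1 against Ccnd1 in each library (CPM, both axes log), with open squares for controls and filled circles for treated groups, each pair in its own colour. The hepatectomy libraries lie at 41.5 to 66.4 CPM of Cdk1, while knockout and wild-type libraries differ mainly along the Ccnd1 axis, from 3.82 to 54.5 CPM.

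Across the 10 groups, mean Ccnd1 was, from the lowest, in the order wild type (4.66 CPM), chow hepatocytes (20.4), floxed chow (24.3), Fxr-/- Shp-/- (44.7), high fat hepatocytes (48.5), corn oil (55.1), sham (82.8), TCPOBOP (84.8), cholic acid (117.3) and hepatectomy (202.9). Neighbours overlapped in their libraries from Fxr-/- Shp-/- to corn oil, between corn oil and sham, between sham and TCPOBOP, and between cholic acid and hepatectomy. Mean Cdk1 had another order: chow hepatocytes (1.11 CPM), sham (1.37), high fat hepatocytes (1.62), wild type (2.06), floxed chow (2.85), Fxr-/- Shp-/- (4.45), corn oil (7.39), TCPOBOP (7.71), cholic acid (11.3) and hepatectomy (51.1). In that order neighbours overlapped except high fat hepatocytes and wild type, and cholic acid and hepatectomy. Sham livers were thus above 6 groups for Ccnd1 and above 1 for Cdk1. Without the library labelled corn oil 1, corn oil was at 42.8 CPM of Ccnd1 and 1.22 of Cdk1, and without floxed chow 3, floxed chow was at 23.3 and 1.88. Sham livers were then above 6 groups for Ccnd1 and above 2 for Cdk1, and corn oil moved below Fxr-/- Shp-/- for Ccnd1. Mean Cdkn1b lay between 20.4 CPM in high fat hepatocytes and 30.8 in cholic acid livers.

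Between genes, levels were compared per kilobase of exon. Cdkn1b and Ccnd1 were the most abundant pair of the 10 in the 5 control groups, with Cdkn1b first in wild type, chow hepatocytes and floxed chow. In sham livers Ccnd1 was at 17.6 CPM per kb, Cdkn1b at 4.85, Cdk1 at 0.278 and Ccnb1, the lowest, at 0.0811. After hepatectomy Ccnd1 was still first at 43.1, followed by Ccna2 (13.1), E2f1 (11.3), Cdk1 (10.4), Ccne1 (9.84) and Ccne2 (8.08), and Cdkn1b was at rank 7 with 6.74 CPM per kb. Ccnd2 was the lowest at 1.30.

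Likeness of pattern was described by Pearson's r of log2 CPM minus the mean of the own control group, over 26 libraries and 10530 genes. The libraries share groups and depth, so r is a description. The genes most like Cdk1 were Tpx2 (0.992), Incenp (0.991), Ccna2 (0.989), Mki67 (0.989) and Racgap1 (0.988). Those most like Ccnd1 were Myof (0.943), Nid1 (0.916), Slc18a1 (0.899), Gsta1 (0.897) and Tgm2 (0.895), and none of these 5 was on the Cdk1 list. For Cdkn1b they were Cyp2r1 (0.883), Jpt2 (0.848), Eri2 (0.845), Spcs2 (0.843) and Ppp1r8 (0.836). Among the 10 genes, Cdk1 was closest to Ccna2, followed by Ccnb1 (0.963) and E2f1 (0.909), less so to Ccne2 (0.814), Ccne1 (0.785), Cdkn1b (0.695), E2f8 (0.548) and Ccnd1 (0.386), and least to Ccnd2 (-0.0349). Ccnd1 and E2f8 were at -0.139. Over the 24 libraries without corn oil 1 and floxed chow 3, Cdk1 was at 0.369 with Ccnd1 and at -0.123 with Ccnd2.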

How the data were processed

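The authors deposited a table of raw read counts per gene for 26 libraries. Per the submitters' processing notes, the tools were bcl2fastq 2.17.1.14, Trimmomatic, STAR 2.4.2a, Picard 1.119 and HTSeq, on GRCm38/mm10. Annotation and strand use in counting are not given in the sources used here. Between 23.0% and 48.6% of reads were in the 5 summary lines and were left out.

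Groups came from titles. Each comparison was fitted alone with edgeR 4.0.16 (R 4.3.3, quasi-likelihood F test) after filterByExpr (minimum count 10, total 15) and TMM. The procedure was tested on simulated counts: after hepatectomy, 200 of 200 genes given a log2 change of 1.5 were recovered among 13598 run, and for TCPOBOP 189 of 200 among 12626. The simulated spread between libraries was the same for every comparison and lower than that of the TCPOBOP and cholic acid data. The coefficient of variation over all genes was 24.7% for TCPOBOP, 26.4% on cholic acid and 15.6% after hepatectomy. Genes of low level were given no change. The recovery therefore does not measure power for TCPOBOP or cholic acid, or for genes of few counts such as Ccnb1 in wild type. Alternatives were DESeq2 1.42.0 size factors and its Wald test, no filter, a replicate block, all libraries in a single fit, and leaving out each library. Gene loci came from GENCODE M21 (GRCm38). A further cell type marker list is not reported here.

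All 10 genes were named, with Cdkn1a and the 2 largest called rises and falls of 45 other control genes. The genes, lists and tests were chosen with earlier results of these data known. Replicate numbers come from titles only. Same-numbered cholic acid libraries deviated together (r 0.103 to 0.155 over genes in 3 pairs) and were treated as paired in the blocked fit, which changed no call of the 10 genes there. Intervals cover counting error only.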

Additional observations from a re-analysis of the deposited data

How the results depend on the processing

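Over all alternatives, 970 values of single genes kept their sign and side of the threshold, 61 lost the call, 37 gained it and 32 changed sign. With TCPOBOP, DESeq2's Wald test called 94 genes, the single fit of all libraries 9, and that fit without the library labelled corn oil 1 called 569 genes and 2 of the 10. The single fit of all 26 libraries called 4 of the 10 in the knockout (4803 genes, 32.2%), 2 on the high fat diet (1735, 11.6%) and 5 on cholic acid (3132, 21%), where Ccna2, Cdk1 and E2f8 were gained. On cholic acid, the Wald test called 1367 genes (6.5%) and 5 of the 10, and no filter 955 (4.54%) and 4. For the knockout minus cholic acid difference, the Wald test (10.6% of genes) and no filter (8.21%) each called 2 of the 10, and for knockout minus high fat diet no filter (10.3%) called 4. With Ccna2 in place of Cdk1, the ratio to Ccnd1 changed by -1.07 in the knockout, -0.0889 on the high fat diet and 0.26 on cholic acid. The cause was not tested for any of these.

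The replicate block called 6 of the 10 genes in the knockout (35.4% of all genes; Ccnd2 lost, adjusted p = 0.0756), 8 after hepatectomy (26.6%; Ccnd1 lost, 0.0781), 7 on the high fat diet (26.6%; Ccna2 lost, Ccne2 gained), 2 on cholic acid (3.82%) and 0 with TCPOBOP (0%), by edgeR. In TCPOBOP it turned Ccna2 to 0.67 and Ccnb1 to 0.80, and the single fit without the library labelled corn oil 1 turned them to 2.84 and 4.08. Same-numbered libraries correlated at -0.176 to -0.019 in the knockout, -0.075 to 0.072 after hepatectomy, 0.104 for TCPOBOP and 0.094 on the high fat diet.

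Leaving out each library in turn gave the following lowest and highest values. Genes called ran from 0 to 1233 with TCPOBOP, 2554 to 4217 after hepatectomy, 1141 to 2644 on the high fat diet, 189 to 1345 on cholic acid, 1089 to 2495 for hepatectomy minus cholic acid and 1269 to 2768 for knockout minus high fat diet. Of the 10 genes, the calls ran from 0 to 7 with TCPOBOP, 1 to 5 on the high fat diet, 1 to 5 on cholic acid, 0 to 3 for knockout minus cholic acid, 4 to 7 for hepatectomy minus cholic acid, and 1 to 3 for knockout minus high fat diet. Over all genes, 1325 to 2350 were called for knockout minus cholic acid. With all libraries, 13.9% of genes were called for that difference, 13% for hepatectomy minus cholic acid and 16.1% for knockout minus high fat diet. The change in the Cdk1 to Ccnd1 ratio ran from -1.15 to 1.64 with TCPOBOP and from -0.52 to 0.15 on cholic acid. Single genes that changed sign ran, with TCPOBOP, from -0.67 to 0.31 for Ccnd2, -0.25 to 1.70 for Ccne1, -0.0924 to 2.33 for Ccne2, -1.01 to 2.83 for Ccna2, -1.12 to 4.06 for Ccnb1 and -0.82 to 2.64 for Cdk1. In the knockout they ran from -0.24 to 0.24 for E2f8 and -0.0669 to 0.0502 for Cdkn1b, and for Ccne1 on the high fat diet from -1.08 to 0.48. On cholic acid they ran from -0.54 to 0.10 for Ccne1, -0.24 to 1.16 for Ccne2 and -0.0169 to 0.14 for Cdkn1b. For knockout minus cholic acid, Ccna2 ran from -1.29 to 0.37 and Cdkn1b from -0.15 to 0.0072, and for knockout minus high fat diet Ccnb1 ran from -0.96 to 0.0099. Depth limits Ccnb1 most, at 1 to 5 counts per library in wild type and 3 in chow hepatocytes.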
